A study of Mus musculus with 4 samples.

Results

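The *Irx2*/*Slc17a7* cluster, called here after 2 of its leading genes, is one of the numbered clusters into which the authors of the study divided neuronal nuclei of the mouse posterior hindbrain. Its members were taken as deposited, namely all nuclei that passed the quality filter of the study, carried the number of this cluster and were annotated as neurons. This gave 76 nuclei, or 0.606% of the 12539 neurons and a small part of the 39461 nuclei kept from 4 libraries. Among the 134 neuronal clusters with kept nuclei it ranked 77 by size. The nuclei came from 2 groups of C57BL/6 mice of both sexes, aged 12 to 20 weeks, in which every mouse received clozapine *N*-oxide (CNO) at 3 mg per kg for 1 h. The AgRP-Gq;POMC-Gi mice (AgRP-IRES-Cre+/-;hM3DGqfl/-;POMC-Dre+/-;hM4DGifl/-) carry the Cre recombinase in AgRP neurons and the Dre recombinase in POMC neurons, so that CNO activates the former through hM3DGq and inhibits the latter through hM4DGi. Control mice, labelled WT, lack both recombinases and, according to the methods of the study, still carry the hM3DGq and hM4DGi alleles. Each group has 2 libraries made from the pooled tissue of 2 mice. Which mouse went into which library is not given in the sources used here, nor whether the libraries of a group are separate animals. The AgRP-Gq;POMC-Gi libraries differed in sex-linked transcripts, as given below, and so did not hold the same mix of mice. AgRP neurons lie in the arcuate nucleus of the hypothalamus, outside the tissue measured here. *Pomc*, which POMC neurons express, had 3 UMIs in the cluster, in 3.95% of its nuclei against 2.87% of the other neurons (a UMI is one captured transcript molecule).

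Neurons that release glutamate load it into synaptic vesicles with a vesicular glutamate transporter. In the hindbrain most of them use VGLUT2, the product of *Slc17a6*, whereas VGLUT1, the product of *Slc17a7*, is best known from the cerebral cortex and from cerebellar granule cells. Neurons that release GABA or glycine use the vesicular transporter encoded by *Slc32a1* instead. Immediate early genes (IEGs) such as *Fos* and *Homer1* are transcribed within minutes to hours of strong neuronal activity and serve as its readout.

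The libraries contributed 13 and 25 nuclei of control replicates 1 and 2, and 29 and 9 nuclei of AgRP-Gq;POMC-Gi replicates 1 and 2. A nucleus of the cluster had between 2357 and 31144 unique molecular identifiers (UMIs), with a median of 11688 against 8687 in the other 12463 neurons. UMIs were summed over the nuclei of a library and scaled to CPM (UMIs of a gene per 1000000 UMIs of these nuclei), based on 181254, 326678, 339331 and 108398 UMIs in the same order. In the following, 4 values given in a row are in this order, and a mean ± SD is over the 4 libraries (n = 4). All 7 general neuronal genes checked, such as *Rbfox3* and *Snap25*, were detected in 25% of the nuclei or more. The summed level of 7 oligodendrocyte markers lay between 135 and 175 CPM against 149 to 305 CPM in the other neurons, and that of 7 astrocyte markers between 22.1 and 36.9 CPM against 119 to 151 CPM. That of 6 immune cell markers was 150.0 to 295 CPM against 172 to 182 CPM, with *Csf1r* and *Tmem119* at 0 UMIs. The libraries differed in ways their groups do not explain. *Ttr*, a transcript of the choroid plexus, had 0, 245, 2 and 64 UMIs in the cluster and was likewise high in the other neurons of both replicates 2. *Xist*, which is expressed in females, had a UMI in 9, 18, 20 and 1 nuclei, while Y-linked genes had one in 5, 10, 11 and 8. In the other neurons *Xist* stood at 507, 316, 542 and 15.9 CPM, so the libraries did not hold the same mix of female and male nuclei. The tests between the groups below hold no term for sex. Between 23 and 41 cell barcodes were shared by each pair of libraries, none of them in the cluster.

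The most prominent genes of the cluster were a mixed set of receptors, transcription factors, matrix proteins and noncoding transcripts. Since clusters were built from expression, the differences between the cluster and the other neurons are a description, and no test is attached to them. Of the 13262 genes detected in 5% or more of the nuclei of either side, 6.37% were at least 2-fold higher and 8.85% at least 2-fold lower in mean CPM than in the other neurons, on the log2 scale with 1 CPM added. A gene that reaches 5% in the other neurons alone could pass only by being high there, so the members of a gene group are counted below among those found in 5% or more of the cluster's nuclei, and the rest are given apart. Over the 12574 genes of that kind, 6.72% were at least 2-fold higher and 4.93% at least 2-fold lower, a filter that in turn favours genes high in the cluster, so the counts are a description. The 20 genes with the largest log2 ratio among those detected in every library and in 25% of the nuclei or more included *Insrr*, *Slc17a7*, *Gm14344*, *Irx2*, *Lama1*, *Crh*, *Gm14342*, *Cubn*, *Serinc2*, *Fam107b*, *Slc7a15*, *5033421B08Rik*, *1700109G14Rik*, *Grin2c*, *Pax6*, *Tnfrsf23* and *Gm40999*. Of the 20, 5 are noncoding, and 5 (*Gm14344*, *Irx2*, *Lama1*, *Gm14342* and *Cubn*) were higher here than in any other neuronal cluster.

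*Insrr* encodes the insulin receptor-related receptor, a relative of the insulin receptor that responds to alkaline pH. It reached 60.7, 79.6, 100.2 and 36.9 CPM, against a mean of 2.43 CPM in the other neurons. All 4 libraries were far above the other neurons, the lowest value being that of the library with 9 nuclei, and the log2 ratio was 4.36. It was detected in 43.4% of the nuclei (exact binomial 95% interval 32.1 to 55.3%), against 1.77% of the other neurons. Only cluster 49, at 75.1 CPM, exceeded its mean of 69.3 ± 27.0 CPM.

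*Lama1*, on chr17:67697259-67822647 (GRCm38, plus strand), encodes the α1 chain of laminin, a protein of the extracellular matrix. Its level was 408, 459, 554 and 286 CPM, with a mean of 427 ± 112 CPM against 22.7 CPM in the other neurons. It was the gene nearest to a uniform label among the leading 20, with UMIs in 74 of 76 nuclei (97.4%) against 10.0% of the other neurons. At an equal depth of 2000 UMIs per nucleus it was still found in 63.2% of the cluster and in 3.19% of the other neurons, while oligodendrocytes, which should lack it, showed 0.123%. Cluster 175 had nearly the same level, at 423 CPM.

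**Figure D1:**
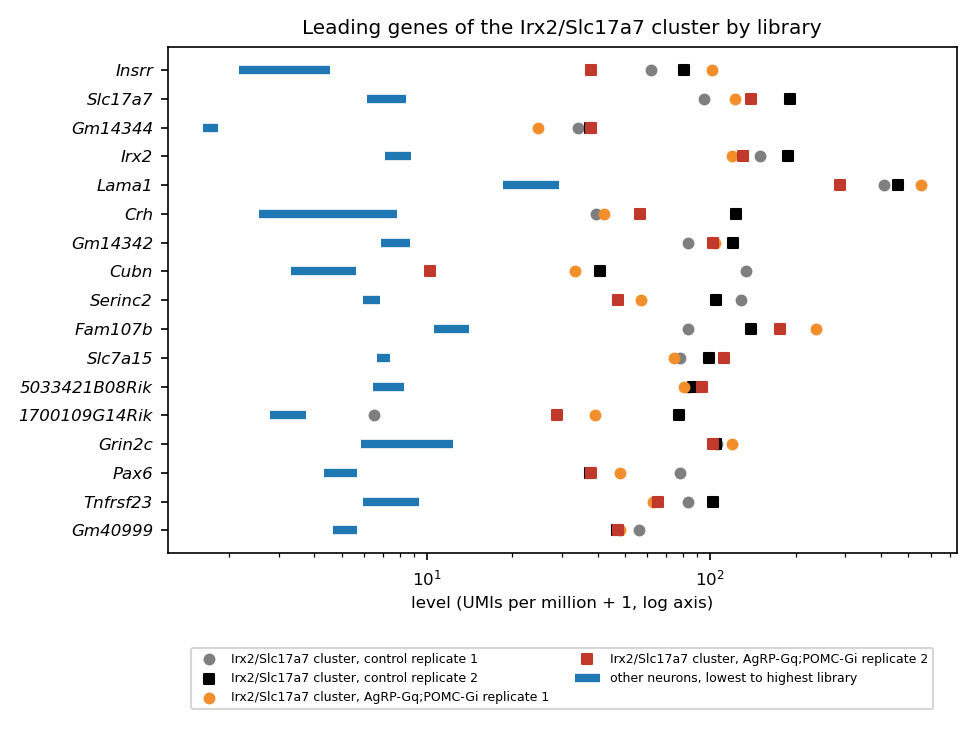
Level of 17 of the 20 leading genes of the *Irx2*/*Slc17a7* cluster in each library (points, CPM + 1 on a log axis) beside the range of the 4 libraries in the other neurons (bars). *Lama1* lies highest among them, at 286 to 554 CPM, and every gene shown lies above the range of the other neurons in each of the 4 libraries.

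The *Irx2*/*Slc17a7* cluster was glutamatergic by the rule that the mean level of *Slc17a6* is at least 4-fold that of *Slc32a1*, both as UMIs counted at the 3′ end of transcripts and not scaled by length. Summed over the libraries there were 73 UMIs of *Slc17a6* and 2 of *Slc32a1*, a ratio of 36.5 (95% interval 9.75 to 307, counting error only). *Slc17a6* stood at 99.3, 55.1, 85.5 and 73.8 CPM, with a mean of 78.4 ± 18.7 CPM that was within the SD of the mean of the other neurons, 76.0 CPM. *Slc17a7* reached 93.8, 189.8, 120.8 and 138 CPM, against 5.77 ± 1.10 CPM in the other neurons. The transcript of VGLUT2 was thus at the average of all other neurons, inhibitory ones included, and that of VGLUT1 was 20.2-fold above it, with 1 CPM added to both sides.

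The 2 transporters were found in the same nuclei. Both had a UMI in 37 nuclei, *Slc17a7* alone in 22, *Slc17a6* alone in 6 and neither in 11, so 48.7% of the nuclei had both, against 1.19% of the other neurons. *Slc17a7* was detected in 77.6% of the nuclei (66.6 to 86.4%), 2.54% of the other neurons and 0.262% of oligodendrocytes (median UMIs per nucleus 11688, 8687 and 2460). At 2000 UMIs per nucleus the shares were 18.4%, 0.854% and 0.211%. A mean level of *Slc17a7* above 50 CPM was found in 6 of the neuronal clusters, namely 182 (236 CPM), 104 (211 CPM), 113 (153 CPM), 107 (140.1 CPM), the one described here (136 CPM) and 161 (126 CPM). It held 15.7% of all neurons with a *Slc17a7* UMI.

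The 4 genes checked for GABA transmission were all at least 2-fold lower than in the other neurons, and 2 of them were found in 5% or more of the cluster's nuclei. *Gad1*, encoding a GABA-synthesising enzyme, had 0 UMIs in 76 nuclei, which allows a share of nuclei with a UMI of up to 3.95% (3 counts of 76, counting error only), against 27.1% of the other neurons. *Slc6a5*, the neuronal glycine transporter, had 1 UMI. *Gad2*, the other GABA-synthesising enzyme, had 16.6, 18.4, 32.4 and 36.9 CPM against 95.9 CPM in the other neurons. It was detected in 23.7% of the nuclei, 38.6% of the other neurons and 3.03% of oligodendrocytes. At 2000 UMIs per nucleus these shares were 2.63%, 16.5% and 2.25%. At this depth the share in the cluster was close to that in oligodendrocytes, but it rests on few nuclei. *Gad2* and *Slc17a7* were both present in 14 nuclei (18.4%), against 0.369% of the other neurons. Of the 4 markers for acetylcholine, none was detected in 5% of the nuclei, and of the 7 for catecholamines only *Slc18a2*, which loads monoamines into vesicles, was. The remaining markers of both lists were under 5% in the other neurons too, so their low detection does not set the cluster apart.

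**Figure D2:**
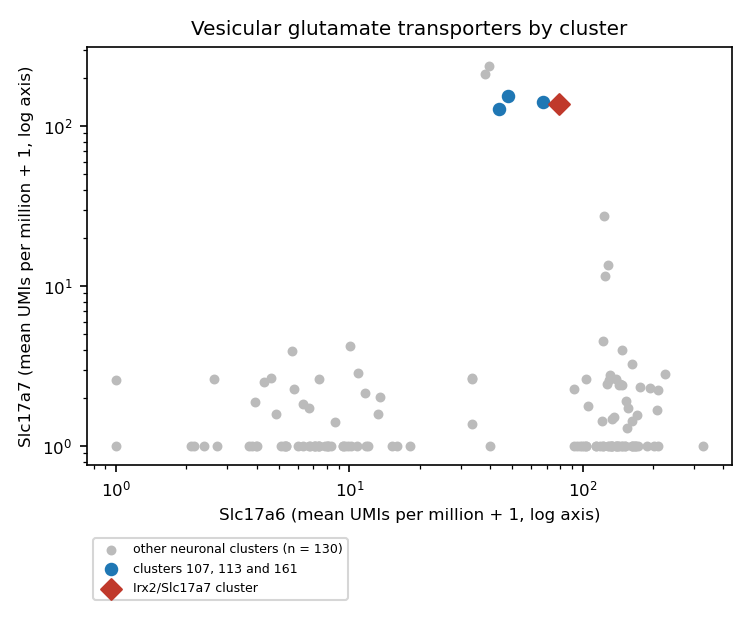
Mean levels of *Slc17a6* and *Slc17a7* in each of the 134 neuronal clusters (CPM + 1, both axes logarithmic). The *Irx2*/*Slc17a7* cluster (diamond) and 5 others lie apart at the top, above 100 CPM of *Slc17a7*, and it has the highest *Slc17a6* level among these 6 (78.4 CPM).

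Transcription factors differed from the other neurons in both directions. Of 73 lineage transcription factors on the list, 27 were found in 5% or more of the cluster's nuclei, 10 of them at least 2-fold higher and 5 at least 2-fold lower than in the other neurons. A further 14, all of them at least 2-fold lower, reached 5% in the other neurons alone. *Irx2* (ENSMUSG00000001504, chr13:72628820-72634198, plus strand), an Iroquois homeobox gene, led the list. It stood at 149, 187, 118 and 129 CPM against 7.03 ± 0.677 CPM in the other neurons, in 57 of the 76 nuclei (63.7 to 84.2%) against 5.18% of the other neurons. The log2 ratio was between 3.98 and 4.42 in the 4 libraries. The next neuronal cluster was 113 at 72.3 CPM. *Irx1*, its neighbour on chromosome 13, was found at 33.1, 24.5, 26.5 and 9.23 CPM, and 15 of the 19 nuclei with *Irx1* also had *Irx2*.

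*Pax6*, a paired-box gene of the rhombic lip lineage, followed with 77.2, 36.7, 47.2 and 36.9 CPM (log2 ratio 3.42), in 42.1% of the nuclei. *Nfib*, a nuclear factor I gene, was found in 96.1% of the nuclei at 386, 471, 622 and 719.6 CPM against 102 CPM. In this gene both AgRP-Gq;POMC-Gi libraries lay above both control libraries, but the difference did not pass the test described below (edgeR, log2 fold change 0.64 ± 0.27 SE, adjusted p = 0.992). *Neurod2*, a proneural factor of glutamatergic neurons, and the cerebellar and dorsal hindbrain genes *Zic1* and *Zic4* were also higher, with log2 ratios of 1.96, 1.33 and 1.37. In contrast, *Zfhx4* (−4.64), *Zfhx3* (−3.08), *Ebf1* (−2.40), *Ebf3* (−4.40) and *Pax2* (−4.64) were low. *Pax2*, a factor of inhibitory hindbrain neurons, was present in 1 nucleus. A gene this rare stays under the 5% filter in the cluster and could only come out low. *Zic1* and *Zic4* belong to a list of 25 Hox and Zic genes, of which 14 were found in 5% or more of the cluster's nuclei. Of these 14, 3 were at least 2-fold higher and 3 at least 2-fold lower. Another 1, at least 2-fold lower, reached 5% in the other neurons alone.

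Several leading genes are neighbours. Among the leading 20, 6 lay within 100000 bp of another of the 20, and among the leading 50 there were 14 of this kind in 7 pairs. *Gm14344* and *Gm14342* overlap by 12434 bp on opposite strands of chromosome 2, and *Slc7a15*, an amino acid transporter gene, overlaps *5033421B08Rik* by 34199 bp on chromosome 12. Cell Ranger assigns reads to genes by strand by default, but the settings used are not given in the sources used here, so a part of the reads of such overlapping pairs may be uncertain. *Slc7a15* and *5033421B08Rik* had means of 89.9 and 85.1 CPM in the cluster, and oligodendrocytes had similar levels, 73.5 and 95.5 CPM. Cluster 161 had more of both, at 204 and 172 CPM.

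Another pair was *Col4a4* and *Col4a3*, which encode the α4 and α3 chains of type IV collagen of basement membranes and came right after the leading 20. They are transcribed in opposite directions from starts at positions 82586849 (minus strand) and 82586921 (plus strand) of chromosome 1. Both had a UMI in 18 nuclei, *Col4a4* alone in 16, *Col4a3* alone in 7 and neither in 35, so 23.7% of the nuclei held both, against 0.971% of the other neurons. The pair was not particular to the cluster. Cluster 107 had more of both, at 104.9 CPM of *Col4a4* and 55.4 CPM of *Col4a3* against means of 81.1 and 32.5 CPM here. The window around the *Col4a4* start, chr1:82586800-82587099 (GRCm38.p6, minus strand, from RefSeq), is shown because the same bases lie before both genes. Capitals mark the 71 bases between the 2 starts. Of 32851 RefSeq windows of 300 bases placed in the same way, 8.29% hold the start of a gene on the other strand.

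Col4a4 promoter window: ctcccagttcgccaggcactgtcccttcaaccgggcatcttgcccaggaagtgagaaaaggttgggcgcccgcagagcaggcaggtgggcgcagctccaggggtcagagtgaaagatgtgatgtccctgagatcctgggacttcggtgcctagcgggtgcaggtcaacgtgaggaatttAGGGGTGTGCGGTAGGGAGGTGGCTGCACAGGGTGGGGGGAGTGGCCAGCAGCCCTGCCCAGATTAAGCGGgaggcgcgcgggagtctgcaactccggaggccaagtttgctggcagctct

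Receptors for glutamate were skewed to a few members. Of 24 glutamate receptor genes, all found in 5% or more of the nuclei, 5 were at least 2-fold higher and 6 at least 2-fold lower, with a median log2 ratio of −0.46. *Grm8*, a metabotropic receptor that dampens transmitter release, was among the most evenly expressed, at 2615, 3125, 3041 and 2537 CPM against 472 CPM. It was found in 97.4% of the nuclei against 54.3% of the other neurons, and in 92.1% against 36.8% at equal depth. The log2 ratio was between 2.47 and 2.73, so the libraries differed little compared with the distance to the other neurons, and only cluster 182, at 2849 CPM, had a higher mean than its 2829.7 CPM.

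*Grik1*, a kainate receptor subunit, stood at 1434, 1733, 1527 and 923 CPM in 98.7% of the nuclei (log2 ratio 2.00). *Grin2c*, an NMDA receptor subunit best known from the cerebellum, had 105, 104, 118 and 101 CPM. With a mean of 107 ± 7.35 CPM against 8.59 ± 3.11 CPM it had nearly the same level in all libraries. *Grik3* (1.15) and *Grm2* (2.89) completed the higher members, the latter in 14.5% of the nuclei.

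On the other side, *Gria1*, an AMPA receptor subunit, was found at 5.52, 9.18, 73.7 and 0 CPM against 397 CPM. Of the 25 UMIs in AgRP-Gq;POMC-Gi replicate 1, 15 came from 1 nucleus that is described below. The subunit was detected in 9.21% of the nuclei and in 73.4% of the other neurons, and only 2 of the 134 neuronal clusters had a lower mean. *Grik2* (369.6, 257, 274 and 378 CPM, log2 ratio −2.25), *Gria3* (−1.54) and *Grin2a* (−1.39) were also low.

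**Figure D3:**
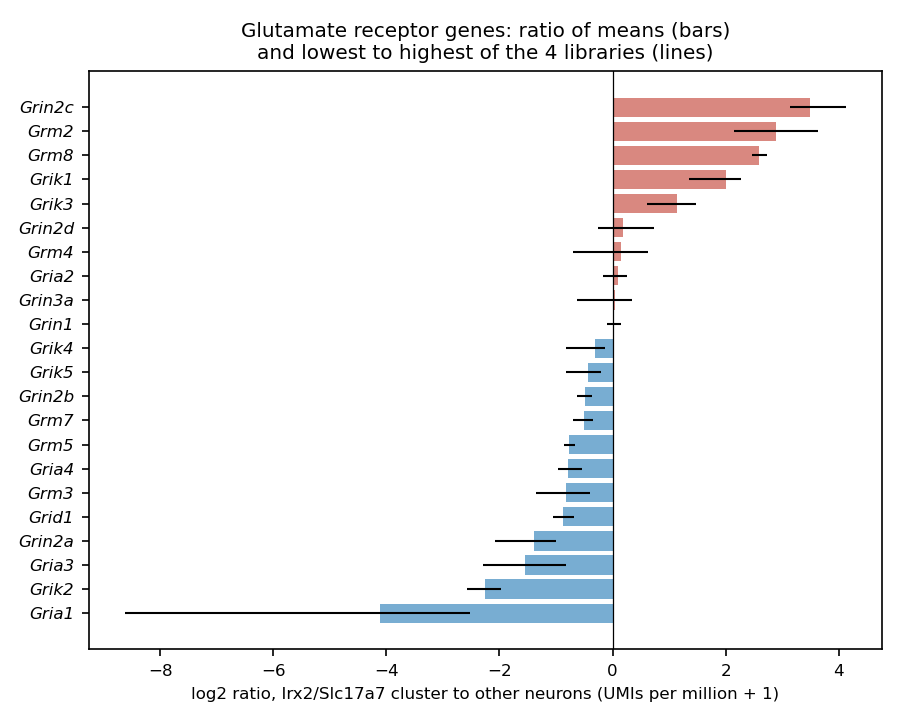
Log2 ratio of the level in the *Irx2*/*Slc17a7* cluster to that in the other neurons (CPM + 1) for 22 of the 24 glutamate receptor genes, with bars for the ratio of means and lines from the lowest to the highest of the 4 libraries. *Grin2c*, *Grm2*, *Grm8*, *Grik1* and *Grik3* lie above 0 in every library, and *Gria1*, *Grik2*, *Gria3* and *Grin2a* lie below 0 in every library.

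Among receptors for GABA and glycine, 15 were found in 5% or more of the nuclei, 1 at least 2-fold higher and 4 at least 2-fold lower. *Gabrg3*, a γ subunit of the GABA-A receptor, was found at 0, 9.18, 26.5 and 9.23 CPM against 806 CPM, in 7.89% of the nuclei against 77% of the other neurons. *Gabra4*, an α subunit that reached 5% in the other neurons alone, had 0 UMIs. The glycine receptor subunit *Glra3* (−2.85) and the GABA-A subunit *Gabrb1* (−2.07) were also low. Of the 7 genes for calcium-binding proteins, which are often used to tell neurons apart, 2 were found in 5% or more of the nuclei, 1 of them at least 2-fold lower, and *Calb1* (calbindin) had 0 UMIs. A further 4 of these genes reached 5% in the other neurons alone. Of 40 ion channel genes found in the cluster, 4 were at least 2-fold higher and 11 lower, while another 4 reached 5% in the other neurons alone. *Kcnip4*, a subunit that modulates A-type potassium channels, was the most abundant of the higher ones, at 8049, 9413, 10901 and 8109 CPM against 4086 CPM, whereas the potassium channel genes *Kcnq5* (−2.42) and *Kcnc2* (−2.22) were low.

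AgRP neurons release AgRP, neuropeptide Y and GABA, and POMC neurons release melanocortins and β-endorphin. Of 10 receptors for these signals, 6 were found in 5% or more of the cluster's nuclei, 3 of them at least 2-fold higher and 0 at least 2-fold lower than in the other neurons. A further 1, at least 2-fold lower, reached 5% in the other neurons alone. *Gabbr2*, a subunit of the GABA-B receptor, stood at 552, 493, 530.5 and 406 CPM against 224 CPM, in 97.4% of the nuclei. *Npy1r*, a receptor of neuropeptide Y, had 16.6, 18.4, 23.6 and 36.9 CPM against 7.41 CPM, in 21.1% of the nuclei. *Oprd1*, the δ opioid receptor, had 33.1, 33.7, 38.3 and 64.6 CPM against 12.9 CPM. In all 3 genes each library exceeded the mean of the other neurons. *Oprm1*, the μ opioid receptor, was at the level of the other neurons (log2 ratio −0.08) in 57.9% of the nuclei. The melanocortin receptors *Mc3r* and *Mc4r* and the receptor *Npy2r* had 0 UMIs, which by the same bound allows at most 3.95% of nuclei with a UMI for each. Since only 1 receptor of the list reached 5% in the other neurons alone, most of these genes were under 5% there too.

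Of 15 receptors for other signals related to feeding and arousal found in the cluster, 4 were at least 2-fold higher and 0 lower, and 8 more reached 5% in the other neurons alone. *Hcrtr2*, a receptor for orexin, was found at 110.3, 162, 194 and 138 CPM against 50.6 CPM, and *Chrm3*, a muscarinic acetylcholine receptor, at 932, 860.2, 1005 and 876 CPM against 349 CPM. Of 10 neuropeptide genes found in the cluster, only *Crh* was at least 2-fold higher, and 2 were lower, and 4 more reached 5% in the other neurons alone. *Crh*, which encodes corticotropin-releasing hormone, stood at 38.6, 122, 41.3 and 55.4 CPM against 3.47 CPM, in 36.8% of the nuclei. In control replicate 2, a single nucleus held 26 of the 40 UMIs. Its receptor gene *Crhr1* was found at 11.0, 45.9, 73.7 and 92.3 CPM in 35.5% of the nuclei. Both were present in 10 nuclei, *Crh* alone in 18, *Crhr1* alone in 17 and neither in 31. For *Crhr1* both AgRP-Gq;POMC-Gi libraries were above both controls, with a log2 fold change of 1.30 ± 0.46 SE that did not pass the adjustment over all genes (edgeR, unadjusted p = 0.00498, adjusted p = 0.87).

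To see what separates the *Irx2*/*Slc17a7* cluster from its nearest relatives, its mean profile was correlated with that of each other neuronal cluster over 12115 genes, on the log2 scale with 10 CPM added. The most alike were clusters 107 (Pearson's r = 0.955, 90 nuclei), 113 (r = 0.95, 83 nuclei) and 161 (r = 0.929, 48 nuclei), followed by cluster 88 (r = 0.911). These values are across genes of the same libraries and are a description. All 3 are among the clusters with *Slc17a7* above 50 CPM, and they also held *Lama1* (325, 189 and 228 CPM) and *Grm8* (2041, 1837 and 1195 CPM). *Pax6*, at 39.3, 14.6 and 55.9 CPM, and *Nfib*, at 320, 704 and 536 CPM, were found there too, against 49.5 and 550 CPM in the cluster.

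*Crh* was one of the genes that set the cluster apart from these relatives, at 64.4 CPM against 5.55, 9.08 and 7.38 CPM. The largest ratio to their mean was that of *Adamts18*, a secreted metalloprotease gene, with 38.6, 15.3, 47.2 and 27.7 CPM in the cluster, where 28.9% of the nuclei had a UMI, against 1.11%, 1.20% and 0% in the relatives. *Col8a1*, a collagen gene, was 12.7-fold and *Cubn*, which encodes the uptake receptor cubilin, 7.88-fold higher. *Cubn* varied widely between the libraries, at 132, 39.8, 32.4 and 9.23 CPM. Conversely, *Spp1*, encoding osteopontin, was found at 15.2 CPM against 105, 172 and 59.2 CPM. *Gria1* was low in clusters 107 and 113 too (60.0 and 25.8 CPM) but not in cluster 161 (429 CPM).

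The first question between the groups was whether nuclei of the cluster were more or less frequent after AgRP neurons had been activated and POMC neurons inhibited. They made up 0.526% (exact binomial 95% interval 0.281 to 0.898%) and 0.914% (0.592 to 1.35%) of the neurons in controls. In AgRP-Gq;POMC-Gi mice the values were 0.785% (0.526 to 1.12%) and 0.247% (0.113 to 0.469%). These intervals cover counting error only. In each group the 2 libraries were farther apart than the group means of 0.720 ± 0.274% and 0.516 ± 0.380% (n = 2 each). The difference of −0.204 percentage points was not significant (exact two-sided permutation test over libraries, p = 0.667, where the smallest p that 2 against 2 libraries allow is 0.333).

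The second question was which genes of the cluster differed between the groups. Sums per library were compared with the quasi-likelihood test of edgeR over 12574 genes, with Benjamini-Hochberg adjustment. In the cluster, 5 genes were higher in AgRP-Gq;POMC-Gi mice (0.0398% of the genes tested) and 0 lower at an adjusted p under 0.05, and 544 genes (4.33%) had an unadjusted p under 0.05. With DESeq2 no gene passed, and 31 had an unadjusted p under 0.05. The other neurons had 0 such genes in either direction by edgeR, with 675 of 12103 (5.58%) at an unadjusted p under 0.05, 2.92% being lower. A test of the difference between the effect in the cluster and that in the other neurons called 6 genes with a higher effect in the cluster (0.0477%) and 2 with a lower one (0.0159%), and 4.24% of the genes had an unadjusted p under 0.05. DESeq2 called 0 here too, with 138 genes at an unadjusted p under 0.05. Values of both groups that do not overlap are common with 2 libraries each, and were seen in 14.3% of the genes for higher and in 18.4% for lower values in AgRP-Gq;POMC-Gi mice.

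The clearest of these genes was *Pde4b* (chr4:102087543-102607259, plus strand), which encodes a phosphodiesterase that breaks down cyclic AMP. It stood at 105 and 79.6 CPM in controls and at 242 and 378 CPM in AgRP-Gq;POMC-Gi mice, so the groups did not overlap in level. These levels came from 19, 26, 82 and 41 UMIs in 5 of 13, 11 of 25, 13 of 29 and 8 of 9 nuclei. The share of nuclei with a UMI was thus clearly higher only in AgRP-Gq;POMC-Gi replicate 2, the library with the fewest nuclei. The log2 fold change was 1.73 ± 0.33 SE (edgeR, adjusted p = 0.000904), and it differed from that of the other neurons, −0.01, by 1.71 ± 0.31 SE (adjusted p = 0.00036). *Pde4b* was below the other neurons in the cluster in all libraries (mean 201 against 639 CPM). It is abundant in oligodendrocytes, at 8267 CPM in 99.8% of nuclei, and the summed level of the 7 oligodendrocyte markers in the cluster was 143, 135, 159 and 175 CPM, with 6 of the 7 detected in 5% of the nuclei or more. The summed level of the 6 immune cell markers was 182, 150.0, 194.5 and 295 CPM. The part of RNA from either cell type in the result was not tested. The nucleus with the most UMIs of all, 31144, in AgRP-Gq;POMC-Gi replicate 1, held 24 of the 82 UMIs there. With DESeq2 and with edgeR's filterByExpr the log2 fold change was 1.74 in both, but the group effect was not called (adjusted p = 1.00 and 0.488). Without control replicate 2 the call was lost as well, at a log2 fold change of 1.52. The call of the difference from the other neurons was lost without control replicate 2 or AgRP-Gq;POMC-Gi replicate 2, where the difference was 1.58 and 1.45.

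For the other genes called higher, 2 nuclei held a large part of the UMIs in AgRP-Gq;POMC-Gi replicate 1. *Asic2*, a proton-gated ion channel gene, was found at 0 and 27.6 CPM in controls against 194 and 0 CPM. Here the groups overlapped, and AgRP-Gq;POMC-Gi replicate 1 alone stood out. Of its 66 UMIs, 50 came from 1 nucleus of 11752 UMIs, and without this nucleus the log2 fold change fell from 2.93 (adjusted p = 3.78e-06) to 1.04 (adjusted p = 0.996). The same nucleus held 24 of 30 UMIs of *Ghr*, the growth hormone receptor gene, and 18 of 20 of *Zfp804b*, a zinc finger gene, in that library. Of the genes that lead the cluster, it held 0 of the 41 *Slc17a7* UMIs, 1 of the 40 *Irx2* UMIs, 4 of the 188 *Lama1* UMIs and 2 of the 14 *Crh* UMIs of the library. Of the 1032 *Grm8* UMIs it held 1.

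*Ghr* stood at 5.52 and 6.12 CPM in controls against 88.4 and 9.23 CPM (log2 fold change 3.39, adjusted p = 0.00478, and 1.39, adjusted p = 0.996, without that nucleus). *Zfp804b* stood at 0 and 6.12 CPM against 58.9 and 18.5 CPM and passed the test of the difference from the other neurons alone (3.48, adjusted p = 0.0183, and 1.13, adjusted p = 0.999). Its difference ranged from 2.24 to 12.36 with single libraries left out, and with no filter on genes it was 3.45 and not called (edgeR, adjusted p = 0.0671). In both genes the groups did not overlap, but the second AgRP-Gq;POMC-Gi library was closer to the controls than to the first. *Cntn3*, a gene for a cell adhesion molecule of the contactin family, had 71.7 and 52.0 CPM against 221 and 101 CPM (1.63 ± 0.36 SE, adjusted p = 0.0146). Of its 75 UMIs in AgRP-Gq;POMC-Gi replicate 1, 33 came from the nucleus with 31144 UMIs, and without both nuclei the log2 fold change was 1.10 (adjusted p = 0.998), whereas *Pde4b* still passed (1.57, adjusted p = 0.0181). Leaving out the first AgRP-Gq;POMC-Gi library, the log2 fold changes of *Ghr* and *Cntn3* were 0.51 and 0.67 (edgeR, adjusted p = 0.970 and 0.924). Without a control library the log2 fold changes stayed about as large but neither call passed. They were 3.33 and 1.80 without control replicate 1 (edgeR, adjusted p = 0.0802 and 0.0625) and 3.49 and 1.37 without control replicate 2 (adjusted p = 0.397 and 0.993).

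In the other direction, no gene of the cluster was called between the groups, but the effect in *Gm32647*, a noncoding transcript, and *Chst9*, a sulfotransferase gene, was lower than in the other neurons. *Gm32647* was found at 789 and 655 CPM in controls against 533 and 27.7 CPM (difference −1.36 ± 0.26 SE, adjusted p = 0.000721). Its log2 fold change between the groups, −1.06, was not called (edgeR, adjusted p = 0.166), but it was called at −1.11 without TMM factors (adjusted p = 0.00925), at −2.62 without the 2 nuclei (adjusted p = 2.83e-12) and at −4.75 without the first AgRP-Gq;POMC-Gi library (adjusted p = 5.85e-14). Leaving out the second AgRP-Gq;POMC-Gi library, the difference was −0.64 (edgeR, adjusted p = 0.999), and leaving out the first, −4.57. Single nuclei dominated here too, with 195 of 214 UMIs in control replicate 2 and 131 of 181 in AgRP-Gq;POMC-Gi replicate 1. *Chst9* stood at 88.3 and 196 CPM against 64.8 and 27.7 CPM (difference −1.76, adjusted p = 0.043). Without the nucleus with most *Asic2* UMIs, which held none of its UMIs, the difference was nearly the same, −1.74, with an adjusted p of 0.115. Without control replicate 2 its difference was −0.92 (edgeR, adjusted p = 1.00). Leaving out the first and the second AgRP-Gq;POMC-Gi library gave −2.99 and −1.42 (adjusted p = 0.0591 and 0.736). *Gm1976*, with 177 and 171 CPM against 73.7 and 73.8 CPM, and *A730081D07Rik*, with 60.7 and 55.1 CPM against 5.89 and 18.5 CPM, are examples of genes with no overlap that did not pass (adjusted p = 0.541 and 0.174).

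**Figure D4:**
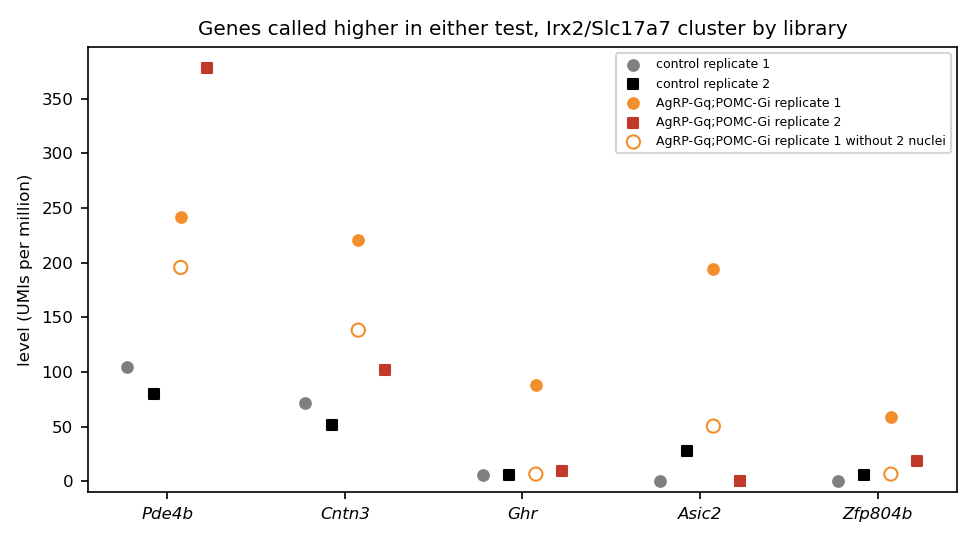
Levels of 5 genes called higher in the *Irx2*/*Slc17a7* cluster, or in the difference from the other neurons, by library (filled points, CPM), with AgRP-Gq;POMC-Gi replicate 1 also shown without 2 nuclei (open circles). *Pde4b* lies at 242 and 378 CPM in AgRP-Gq;POMC-Gi mice and at 79.6 to 105 CPM in controls, while *Asic2*, *Ghr* and *Zfp804b* fall from 58.9 CPM or more in that replicate to 50.6 CPM or less without these nuclei.

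The third question was whether IEGs of the cluster differed between the groups. Of the 10 IEGs of the study, 9 were detected in 5% of the nuclei or more, 0 of 9 passed the adjustment over all genes, and 2 had an unadjusted p under 0.05, both of them lower in AgRP-Gq;POMC-Gi mice. Over all genes, 2.43% had an unadjusted p under 0.05 and were lower. The cluster was already known from an earlier analysis of these data to have one of the lowest IEG scores, so the following is a description of the genes behind it.

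*Homer1*, a scaffold protein gene with an activity-induced short form, stood at 66.2 and 85.7 CPM in controls against 26.5 and 27.7 CPM. These levels rest on 12, 28, 9 and 3 UMIs. The groups did not overlap, with a log2 fold change of −1.47 ± 0.49 SE (edgeR, unadjusted p = 0.00267, adjusted p = 0.761), against 0.08 in the other neurons, where *Homer1* had a mean of 66.7 CPM. The window around its start, chr13:93303507-93303806 (GRCm38.p6, plus strand, from RefSeq), is shown for the motif that the activity-dependent factor CREB is known to bind. Capitals mark 3 matches of its core TGACG on the printed strand or, as CGTCA, on the other. Of 32851 RefSeq windows 20.8% hold at least 1 such match on either strand and 1.03% at least 3, while the full site TGACGTCA, in 1.79% of windows, is not among the letters of this one.

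Homer1 promoter window: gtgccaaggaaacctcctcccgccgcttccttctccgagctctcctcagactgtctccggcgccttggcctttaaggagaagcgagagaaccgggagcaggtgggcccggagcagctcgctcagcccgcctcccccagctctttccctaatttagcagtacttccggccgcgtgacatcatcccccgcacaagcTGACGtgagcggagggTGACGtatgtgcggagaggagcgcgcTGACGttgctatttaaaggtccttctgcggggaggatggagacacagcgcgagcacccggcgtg

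The other gene was *1700016P03Rik* (ENSMUSG00000085609, chr11:75172560-75177633, plus strand), a noncoding transcript from which miR-212 and miR-132, microRNAs induced by neuronal activity, are cut. It was found at 55.2 and 30.6 CPM against 5.89 and 27.7 CPM, from 10, 10, 2 and 3 UMIs. The lower control library was barely above the higher AgRP-Gq;POMC-Gi library. The log2 fold change was −1.71 ± 0.72 SE (edgeR, unadjusted p = 0.0169, adjusted p = 0.992), in the other neurons it was 0.58 (adjusted p = 0.801), and the difference of −2.32 did not pass the adjustment (adjusted p = 0.707). Leaving out the first AgRP-Gq;POMC-Gi library, the log2 fold change between the groups was −0.61 (edgeR, adjusted p = 0.931). The mature sequences within the gene, miR-212-3p at chr11:75173443-75173464 and miR-132-3p at chr11:75173723-75173744 (GRCm38.p6, plus strand, from RefSeq), are shown because they share 1 seed, AACAGUC (bases 2 to 8, in capitals), and thus the letters by which microRNAs find their targets.

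mmu-miR-212-3p: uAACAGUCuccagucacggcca
mmu-miR-132-3p: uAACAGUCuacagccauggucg

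The UMIs counted here come from polyadenylated transcripts of the host gene and not from mature microRNAs. *Homer1* and *1700016P03Rik* were found together in 8 nuclei, *Homer1* alone in 22 and *1700016P03Rik* alone in 8. *Fos* itself had 2, 7, 3 and 1 UMIs (11.0, 21.4, 8.84 and 9.23 CPM), at which depth no difference was detectable (log2 fold change −0.88 ± 0.96 SE, adjusted p = 0.992). *Nr4a1*, a nuclear receptor gene, was at 55.2 and 21.4 CPM against 23.6 and 0 CPM (−0.91, adjusted p = 0.992). Its log2 fold change depended on single libraries, with −0.29 when control replicate 1 was left out and −5.86 when this was done with the first AgRP-Gq;POMC-Gi library, where only the library with 0 UMIs is left in the group (edgeR, unadjusted p = 0.751 and 0.0099). The remaining members went both ways, with log2 fold changes of 0.99 for *Jun*, 0.71 for *Gem*, 0.24 for *Junb*, −0.48 for *Btg1* and −1.56 for *Fosl2*, none at an unadjusted p under 0.05.

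An IEG score was computed for the cluster as −ln of the combined p of the IEGs with an unadjusted p under 0.05, with the sign of their mean log2 fold change. It was −7.61 from *Homer1* and *1700016P03Rik* and 0 with DESeq2, in which neither gene had a p under 0.05. With all 9 detected IEGs combined it was −3.77. The genes behind the score changed with the libraries. Without control replicate 1 it rested on *Homer1* alone. Without control replicate 2 *Nr4a1* took the place of *Homer1* (−1.21, edgeR, unadjusted p = 0.0752), and without AgRP-Gq;POMC-Gi replicate 1 that of *1700016P03Rik*. A negative binomial mixed model over single nuclei with the library as a random effect gave log2 fold changes of −1.51 for *Homer1* (unadjusted p = 0.00288) and −1.64 for *1700016P03Rik* (unadjusted p = 0.0411). Its p-values are over 76 nuclei with only 4 libraries for the random effect, so they may be too small. Other activity-related genes, glucocorticoid-induced genes and clock genes, of which 10, 10 and 11 were tested, gave 0 calls each, where 0.0398% of all genes were called higher and 0 lower, so lists of this size say little.

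**Figure D5:**
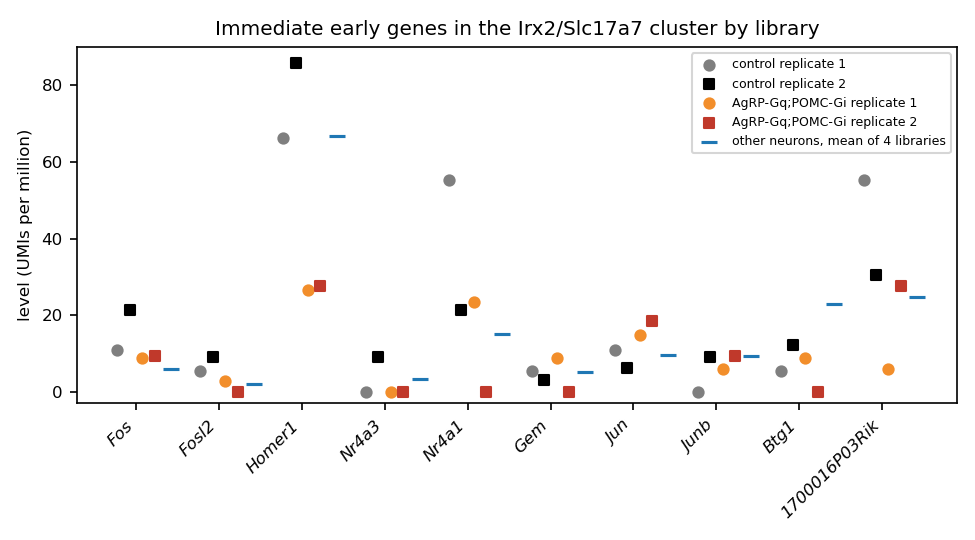
Levels of the 10 IEGs in the *Irx2*/*Slc17a7* cluster by library (points, CPM) beside the mean of the other neurons (dashes). *Homer1* lies at 66.2 and 85.7 CPM in controls and at 26.5 and 27.7 CPM in AgRP-Gq;POMC-Gi mice, where it rests on few UMIs. The other IEGs overlap between the groups or rest on few UMIs as well.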

How the data were processed

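Nuclei of the posterior hindbrain were sorted by flow cytometry and made into 4 libraries with the 10x Genomics 3′ kit. According to the labels and methods, the authors counted UMIs per gene with Cell Ranger 7.0.0 on GRCm38 and deposited these counts for each library. Their table of nuclei gives UMIs, genes and the percentage of mitochondrial UMIs, from which the authors kept nuclei with at least 800 UMIs, 500 genes and at most 10% mitochondrial UMIs, after doublet removal. Clustering used Seurat 4.3.0 on an embedding adjusted for sample. The members are cluster 121 of this table, and no nuclei were clustered again. The authors' IEG scores and combined matrix were not used.

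Counts were summed per library and tested between groups with edgeR 4.0.16 (TMM, quasi-likelihood) in R 4.3.3 on genes in at least 5% of nuclei, and the difference from the other neurons as an interaction with library as a block. Alternatives were DESeq2 1.42.0, other filters, a replicate block, single libraries left out and glmmTMB 1.1.9. Leaving out 1 or 2 nuclei was chosen after seeing the data. The study's nebula was not used. The p-values of edgeR and DESeq2 rest on a spread between libraries of pooled mice that is shared in part over genes. This spread may in part be technical. A gene high in 1 library, such as *Asic2*, can therefore get a small p with edgeR. The p-values of the mixed model are over single nuclei with the library as a random effect. Members and gene lists were chosen with earlier results of these data known. Genes named are the leading 20, list members in at least 25% of nuclei and 2-fold apart, transmitter genes, receptors for arcuate signals, IEGs and genes called, filled to 6 per direction by smallest p. Other genes named, such as *Gria1* and those set against clusters 107, 113 and 161, were chosen after their values were seen. On simulated data with 12574 genes, of which 200 were changed, edgeR recovered 68.5% of 4-fold changes between groups and 63.5% in the interaction. The changed genes were drawn only from those with more UMIs, with a common dispersion and no nuclei that dominate a library. These shares therefore do not hold for genes with few UMIs or for genes dominated by single nuclei. Some genes that these rules select are not reported here. Sequences are from RefSeq (GRCm38.p6).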

Additional observations from a re-analysis of the deposited data

Results flagged for a closer look

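For 8 genes the group effect in the *Irx2*/*Slc17a7* cluster differed from that in the other neurons by the interaction test of edgeR. The differences of the log2 fold changes of 7 of them were 1.71 for *Pde4b*, 2.83 for *Asic2*, 3.28 for *Ghr*, 3.48 for *Zfp804b*, 1.50 for *Cntn3*, −1.36 for *Gm32647* and −1.76 for *Chst9*. Without the nucleus with most *Asic2* UMIs and the nucleus with most UMIs in AgRP-Gq;POMC-Gi replicate 1, 2 of the 7 passed the threshold, *Pde4b* (1.54, edgeR adjusted p = 0.0169) and *Gm32647* (−2.81, adjusted p = 1.04e-16). For *Gm32647* a further nucleus, in control replicate 2, held 195 of the 214 UMIs of its library. The difference for *Chst9* was then −1.88 and as large as before, with an adjusted p of 0.0714. For the other 4 it was between 0.12 (*Ghr*) and 1.23 (*Zfp804b*), with an adjusted p of 0.999 for each.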

How the results depend on the processing

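With DESeq2, 0 genes were higher between the groups (31 at an unadjusted p under 0.05), 0 differed from the other neurons in either direction (138) and the IEG score was 0. With edgeR's filterByExpr (4901 genes) 0 were higher between the groups (231 at an unadjusted p under 0.05). The lower differences were 1 each with filterByExpr, with no filter on genes and without TMM factors, and in the last setting 1 gene was lower between the groups. With the replicate block 2 were higher and 1, *Gm32647*, lower (−1.55, adjusted p = 0.0171), and the IEG score was −6.21. The numbers were not taken to pair the samples. Deviations from the group means correlated at 0.0602 in the cluster and 0.187 in the other neurons, which with 2 libraries per group is a single contrast. *Ttr* in the other neurons stood at 1.50 and 7.55 CPM in replicates 1 and at 1006 and 580 CPM in replicates 2. Whether libraries of the same number were handled together was not tested. *Ghr* and *Cntn3* did not pass with the block, at log2 fold changes of 2.79 and 1.39 (edgeR, adjusted p = 0.593 each). Without 1 and 2 nuclei, 2 and 1 genes were higher between the groups (lower 0 and 1), and 1 and 1 had a higher and 1 and 1 a lower difference. Leaving out each library in turn, where the lone sample of a group is assumed to vary like the others, gave 3 to 10 higher and 1 to 5 lower genes, and 3 to 7 higher and 0 to 7 lower differences. The share of neurons differed by 0.0031 points with all kept nuclei as denominator and by −0.473 to 0.0646 with a library left out, the positive value without AgRP-Gq;POMC-Gi replicate 2. Within replicate numbers 1 and 2 it was 0.258 and −0.666. Over single libraries left out, log2 fold changes ranged from −2.92 to 1.17 for *Gem*, −0.40 to 3.64 for *Junb*, −4.11 to 0.31 for *Btg1*, −5.86 to −0.29 for *Nr4a1*, −3.81 to −1.05 for *Fosl2*, −1.20 to −0.21 for *Fos* and −4.88 to 7.80 for *Asic2* (difference −10.93 to 14.05). With all 9 detected IEGs combined, whatever their p, the IEG score was −3.77. In the other alternatives but DESeq2 it lay between −5.25 and −7.94, although from different genes with single libraries left out. As only IEGs with an unadjusted p under 0.05 enter it there, it is either 0 or well away from 0, and this range is a description. The most alike clusters were the same 3 with 1 CPM added, with Spearman's rho and with each library left out. Of the leading 20 genes, 17 to 19 stayed. The causes were not tested. With 9 to 29 nuclei per library, genes with few UMIs limit the precision.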
